A study of Homo sapiens with 15 samples.

Results

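The E2F family and its retinoblastoma partners were followed by RNA-seq in U251 cells, a human glioblastoma line, after ionizing radiation. The members are 10 genes chosen by name, E2F1 to E2F8, RB1 and RBL1. The rule uses no measured value, but it was set with earlier results of these data known. The deposited table of 22447 genes has rows for 9 of them, and all 9 passed the filter on low counts that left 12719 genes for testing. RBL1 is not analysed here. The tested cells received 6 Gy or 1 Gy of X-irradiation and were collected 24 h or 6 h later, and the control cells were not irradiated. All cells were labelled wild type, which for U251 means an unmodified tumor line. The control is labelled 0 h but was harvested 24 h after the irradiation of the other cells, which gives it the harvest time of the 24 h groups and sets it 18 h apart from the 6 h groups. Each of the 5 groups had 3 libraries of poly(A) RNA, numbered I to III and named biological replicates in the study's methods.

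E2F proteins are transcription factors that bind DNA, mostly as dimers with a DP protein, at the promoters of genes for DNA replication and cell division. In resting and early G1 cells they are held by the retinoblastoma family (RB1, RBL1 and RBL2), whose pocket binds the E2F transactivation domain. Phosphorylation of these pocket proteins by cyclin-dependent kinases frees the activators E2F1, E2F2 and E2F3. E2F4 and E2F5 work mainly as repressors with RBL1 or RBL2, among other places in the DREAM complex, which silences cell cycle genes when cells leave the cycle. E2F6, E2F7 and E2F8 repress without pocket proteins. In glioblastoma the RB1 pathway is commonly altered, often through loss of the CDKN2A and CDKN2B locus.

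Several E2F genes carry E2F sites in their own promoters, so the stretch before the start of transcription is shown for the members in which such a site was found. Among the members searched, promoter entries from RefSeq on GRCh38.p14 began at the gene start for 6, E2F1, E2F2, E2F3, E2F4, E2F6 and E2F7. E2F5 was left out of this search, so whether its promoter holds such a site was not tested. The octamers TTTCCCGC, TTTCGCGC, TTTGCCGC and TTTGGCGC were searched on both strands, in entries of 250 bases before and 50 bases after the start. An octamer was present in 3 of the 6 members, and 3.31% of 35116 promoter entries of the same length held one. The 100 bases before the start of these 3 genes are printed below from 5′ to 3′ on the gene's strand, with the octamers in capitals.
E2F1, chr20:33686386-33686485, minus strand: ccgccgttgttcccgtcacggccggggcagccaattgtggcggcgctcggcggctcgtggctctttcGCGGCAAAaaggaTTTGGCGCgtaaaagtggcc
E2F2, chr1:23531234-23531333, minus strand: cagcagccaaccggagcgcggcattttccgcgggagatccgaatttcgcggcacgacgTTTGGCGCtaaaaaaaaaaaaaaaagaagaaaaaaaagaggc
E2F3, chr6:20401779-20401878, plus strand: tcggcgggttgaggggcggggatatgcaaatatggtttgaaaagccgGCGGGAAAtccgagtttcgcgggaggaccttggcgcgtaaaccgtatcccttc
The base before the start is counted as -1. E2F1 held 2 octamers, TTTGCCGC on the opposite strand at -33 to -26 and TTTGGCGC on its own strand at -20 to -13. E2F2 had TTTGGCGC at -42 to -35, and E2F3 had TTTCCCGC on the opposite strand at -53 to -46. The octamers found did not overlap each other. These 3 genes are the activators of the family, and of them E2F2 alone was called in these libraries, as described below. A match of letters does not show that a factor was bound.

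The libraries held 8691338 to 11719631 counts (median 9604756). The values below come from one edgeR fit over the 13 libraries that the study's own expression table lists, which leaves out control III and 1 Gy at 6 h II for no stated reason. Over genes, the correlation of 1 Gy at 6 h I and II was 0.987, and the other pairs within a group reached 0.991 to 0.994. Levels are CPM, the counts of a gene scaled to a common TMM-adjusted library size. One count was worth 0.0843 to 0.115 CPM, so every member lay far above the counting floor. The glioblastoma and stem cell markers VIM (1369 to 1928 CPM), CD44, NES and SOX2 were high. The astrocyte marker GFAP reached only 2.87 to 4.604 CPM, the oligodendrocyte lineage marker OLIG2 was at 0 in 15 libraries, and AQP4 had 1 count in all. Of the markers of other cells, EPCAM, HBB and PECAM1 were at 0 in 15 libraries, and the 7 blood cell markers in the table summed to 0.625 to 1.55 CPM. The other epithelial and neuron markers were mixed. KRT8 (52.6 to 85.6 CPM), KRT18 (74.3 to 92.8 CPM), SYT1 (19.3 to 35.4 CPM), GAD1 (6.88 to 10.95 CPM) and SNAP25 (5.36 to 8.96 CPM) were expressed. Low values were found for KRT5 (0.417 to 2.78 CPM), KRT19 (0.111 to 0.548 CPM) and CDH1 (0 to 0.23 CPM). So it was for RBFOX3 (0.308 to 2.64 CPM), SLC17A7 (0.11 to 0.608 CPM) and STMN2 (0 to 0.085 CPM). A gene was called when the adjusted p of edgeR's quasi-likelihood test was under 0.05 and the absolute log2 fold change was above 0.5. The 4 comparisons with the control share its 2 libraries.

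E2F5 fell and E2F2 rose after 6 Gy, and these were the 2 members called in any comparison. E2F5 was called lower at 6 h and at 24 h against the control, and E2F2 was called higher at 24 h. At 6 h, 1 of 9 members was called after 6 Gy, where 1.07% of all tested genes were called against the control. At 24 h, 2 of 9 were called, against 7.77% of all genes. After 1 Gy edgeR called 0 of 9 members at either time. The background was 0% of all genes at 6 h and 4.42% at 24 h. Before adjustment, 1 member at 6 h and 4 at 24 h had p under 0.05, and DESeq2 and edgeR's likelihood ratio test called 0 as well. The share of all genes at an unadjusted p under 0.05 alone is not given here or below. Such counts of members thus have no background to be read against. Over all genes, 1 Gy at 6 h gave 0 calls with the quasi-likelihood test, 0 with DESeq2 and 1 with the likelihood ratio test, while 55 genes higher and 64 lower passed the fold limit at an unadjusted p under 0.05. By the adjusted p alone, without the fold limit, the share of members was 3 of 9 at 6 h after 6 Gy (2.88% of all genes) and 4 of 9 at 24 h after 6 Gy (23.6% of all genes). After 1 Gy it was 2 of 9 at 24 h (12.1% of all genes) and 0 of 9 at 6 h (0% of all genes). The median log2 fold change of the 9 members stayed between -0.13 and 0.04 in the 9 comparisons, beside medians of all genes between -0.0065 and 0.0063.

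**Figure D1:**
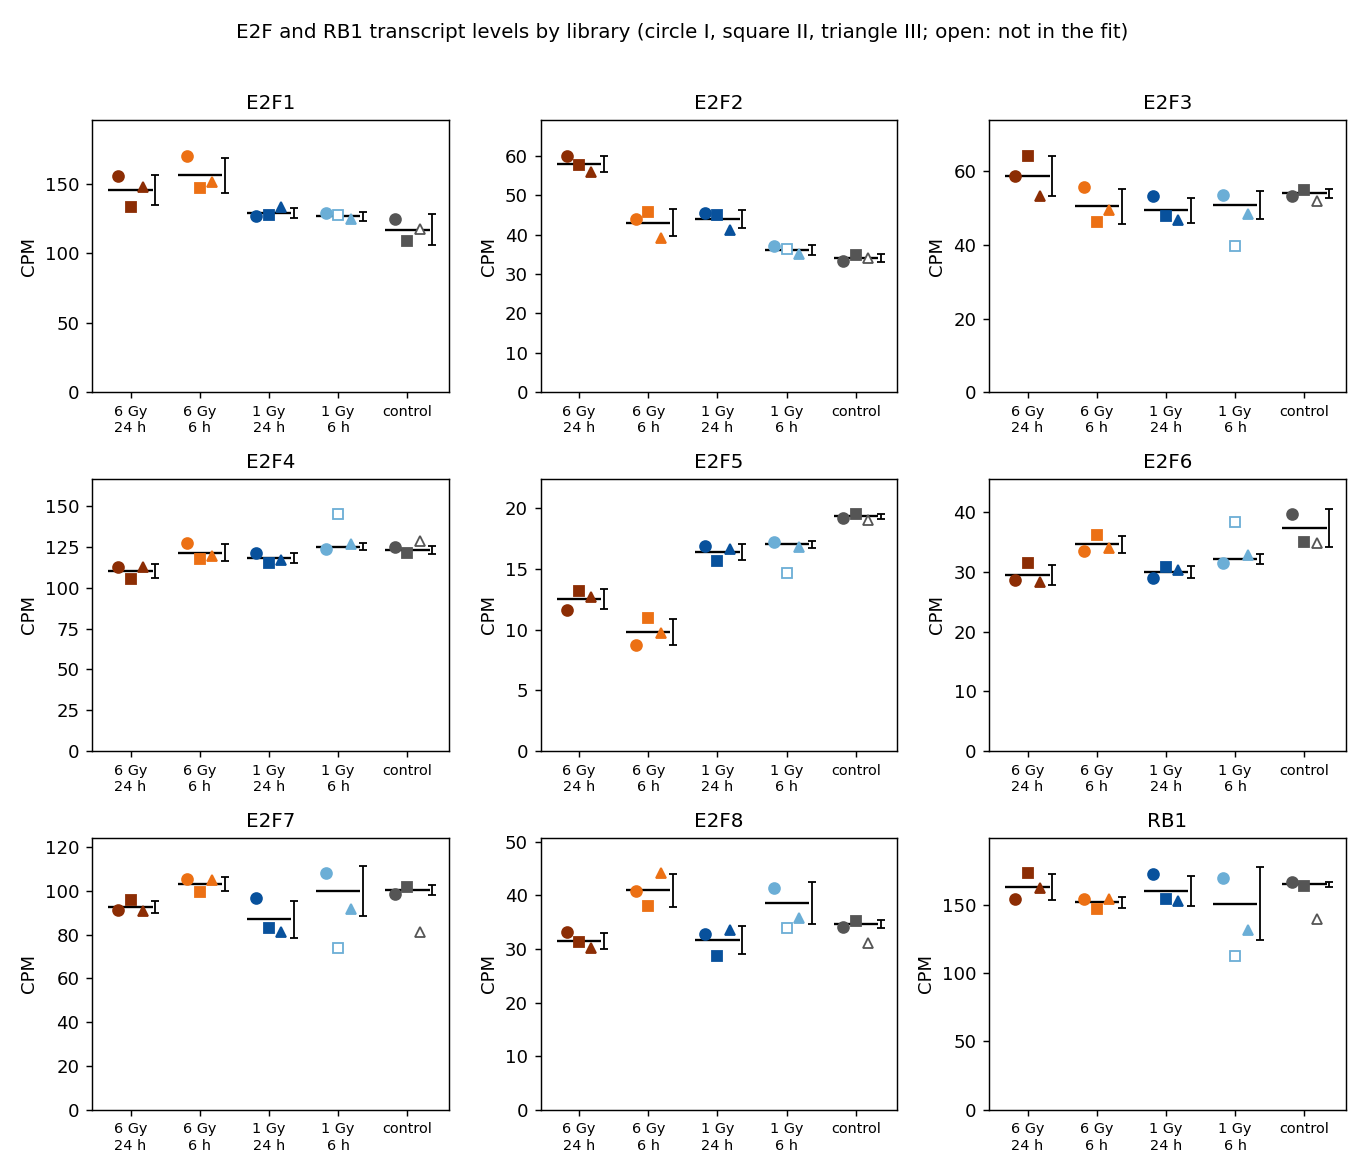
CPM of the 9 measured members (vertical axis, from 0) in the 5 groups. Filled symbols are the 13 libraries of the fit (circle I, square II, triangle III), open symbols the 2 left-out libraries, bars the group means and whiskers the SD of the fitted libraries. E2F5 is lowest at 6 Gy and 6 h (8.75 to 10.95 CPM), and E2F2 is highest at 6 Gy and 24 h (56.0 to 60.1 CPM).

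Levels of different members can be compared only per length of transcript. On the scale of CPM per kilobase of the canonical transcript (GENCODE, hg19), the control levels ran in the order E2F4 58.4, E2F1 43.4, RB1 34.6, E2F7 17.5, E2F6 11.6, E2F3 10.7, E2F5 9.85, E2F8 9.36 and E2F2 6.56 (means of 2 libraries). Of the neighbours in this order, only E2F6 (10.9 to 12.3) and E2F3 (10.6 to 10.9) had overlapping libraries. At 24 h after 6 Gy the order was E2F1 54.1, E2F4 52.3, RB1 34.3, E2F7 16.2, E2F3 11.7, E2F2 11.2, E2F6 9.13, E2F8 8.51 and E2F5 6.38 (means of 3 libraries). E2F1 and E2F4 overlapped there (49.7 to 57.8 and 49.95 to 53.5), as did E2F3 and E2F2 (10.6 to 12.8 and 10.8 to 11.6), and E2F6 and E2F8 (8.77 to 9.73 and 8.15 to 8.95). E2F2 was the lowest member in the control, and E2F5 was the lowest at 24 h after 6 Gy. The transcripts that U251 cells use were not measured, so these per-length levels rest on one transcript a gene.

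E2F2 is an activator that drives entry into S phase. It lies on the minus strand at chr1:23832920-23857712 (hg19) and overlaps no other gene of the table. It had 60.1, 57.7 and 56.0 CPM in libraries I, II and III at 24 h after 6 Gy, against 33.4 and 34.9 CPM in control I and II. The left-out control III had 34.1 CPM. All 3 irradiated libraries lay above every control library. The means were 57.9 ± 2.10 CPM at 24 h after 6 Gy (SD, n = 3) and 34.1 ± 1.06 CPM in the control (SD, n = 2), a log2 fold change of 0.76 ± 0.09 (SE) with an edgeR adjusted p of 3.01e-06. Over all 15 libraries the change was 0.76. These bulk libraries cannot tell more cells with a transcript from more transcript per cell, nor fewer from less.

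The other irradiated groups lay between these levels of E2F2. It had 44.1, 45.9 and 39.2 CPM at 6 h after 6 Gy (log2 fold change 0.33, edgeR adjusted p = 0.0484), and 45.6, 45.1 and 41.3 CPM at 24 h after 1 Gy (0.37, adjusted p = 0.00947), so both passed the adjusted p and stayed under the fold limit. At 6 h after 1 Gy it had 37.1 and 35.2 CPM, with 36.3 CPM in the left-out library, and a log2 fold change of 0.08 (adjusted p = 0.998). The 24 h level was above the 6 h level after both doses, with a log2 fold change of 0.43 after 6 Gy (adjusted p = 0.000202) and 0.28 after 1 Gy (adjusted p = 0.0352), with no overlap of libraries in either case. At 24 h, 6 Gy was 0.40 ± 0.08 (SE) above 1 Gy on the log2 scale (adjusted p = 0.00639). None of these 3 differences passed the fold limit. The test of whether the time difference itself depended on the dose gave 0.14 with an adjusted p of 0.676.

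Summed levels of marker lists also differed between the groups. The 6 neuron markers summed to 49.4 to 52.3 CPM at 24 h after 6 Gy and 43.4 to 46.8 CPM at 24 h after 1 Gy, against 37.3 to 39.9 CPM in the control. Of this list 4 genes were tested. Most of its counts came from SYT1 (19.3 to 35.4 CPM over all libraries), GAD1 and SNAP25, while STMN2 had 1 count in 15 libraries. The 6 epithelial markers, mostly KRT8 and KRT18, summed to 160 to 172 CPM at 24 h after 6 Gy, 151 to 159 CPM at 6 h after 6 Gy and 153 to 169 CPM at 24 h after 1 Gy, against 135 to 143 CPM in the control, while EPCAM was at 0. The 9 glioblastoma and glial markers summed to 3642 to 3785 CPM at 24 h after 6 Gy and 4123 to 4433 CPM at 24 h after 1 Gy, against 3970 to 4023 CPM in the control. The part of these markers in the E2F2 difference was not tested.

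E2F1, the activator that also takes part in the apoptotic response to DNA damage, lies on the minus strand at chr20:32263292-32274210 (hg19). It had 155, 134 and 148 CPM at 24 h after 6 Gy, and at 6 h after 6 Gy it had 170, 147 and 151 CPM, against 125 and 109 CPM in the control. The left-out control had 117 CPM, and every 6 Gy library lay above every control library. The log2 fold change was 0.42 ± 0.08 (SE) at 6 h (edgeR adjusted p = 0.00432) and 0.32 ± 0.08 at 24 h (adjusted p = 0.00755), so both passed the adjusted p and neither passed the fold limit. Without control I the 6 h change was 0.52 (adjusted p = 0.0101), which is past the limit. After 1 Gy E2F1 had 127, 127 and 133 CPM at 24 h and 129 and 125 CPM at 6 h, with log2 fold changes of 0.15 (adjusted p = 0.268) and 0.12 (adjusted p = 0.998) against the control. The libraries of 6 Gy lay above those of 1 Gy at both times, but the differences of 0.17 at 24 h and 0.30 at 6 h had adjusted p of 0.199 and 0.099.

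E2F3, the remaining activator, lies on the plus strand at chr6:20402137-20493945 (hg19), and its known isoforms from separate promoters were not separated in the gene counts. It had 58.6, 64.3 and 53.3 CPM at 24 h after 6 Gy and 55.7, 46.1 and 49.6 CPM at 6 h after 6 Gy, against 53.2 and 54.8 CPM in the control. Both 6 Gy groups overlapped the control. Its log2 fold changes against the control ran from -0.13 to 0.12 over the 4 irradiated groups (lowest adjusted p 0.398). Of the 3 activators, E2F2 was thus called at 24 h after 6 Gy, E2F1 passed the adjusted p alone, and E2F3 passed neither limit.

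**Figure D2:**
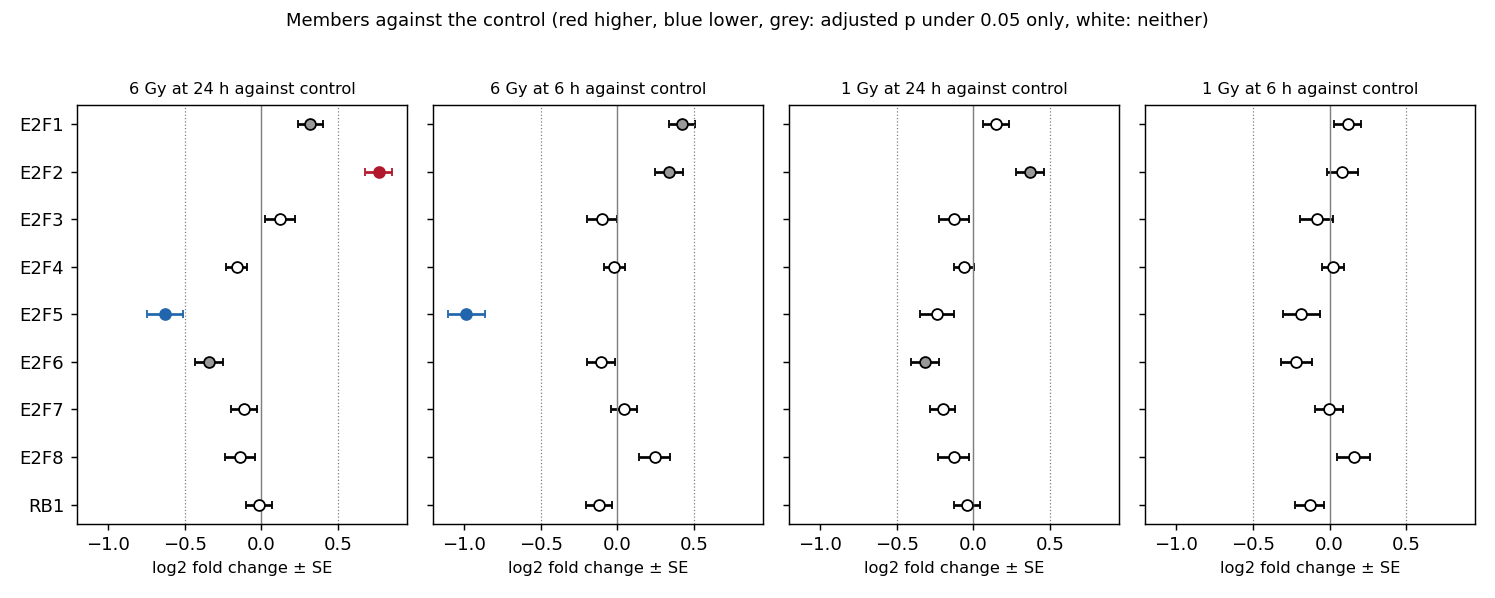
Log2 fold change (horizontal axis) of each member in 4 irradiated groups against the control, with bars for the SE. Red and blue points are called higher and lower, grey points pass the adjusted p alone, white points pass neither, and dotted lines mark the fold limit. E2F5 is at -0.98 at 6 h and -0.63 at 24 h after 6 Gy, E2F2 at 0.76 at 24 h after 6 Gy, and all 9 points of 1 Gy at 6 h are white.

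E2F5 is a repressor that pairs with RBL2 and RBL1. It lies on the plus strand at chr8:86089619-86126753 (hg19). At 6 h after 6 Gy it had 8.75, 10.95 and 9.69 CPM (84, 100 and 93 counts), against 19.2 and 19.5 CPM in the control (180 and 202 counts). The left-out control had 19.0 CPM. Every irradiated library was below every control library, with a mean of 9.80 ± 1.10 CPM at 6 h after 6 Gy (SD, n = 3) and 19.3 ± 0.23 CPM in the control (SD, n = 2). The log2 fold change was -0.98 ± 0.12 (SE), 0.506 of the control level, with an edgeR adjusted p of 1.34e-05. Over all 15 libraries it was -0.97.

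At 24 h after 6 Gy E2F5 was still low, with 11.7, 13.2 and 12.7 CPM and a mean of 12.5 ± 0.78 CPM (SD, n = 3). This was 0.648 of the control level, a log2 fold change of -0.63 ± 0.12 (SE, edgeR adjusted p = 0.000485). The libraries at 24 h lay above all 3 libraries at 6 h, by 0.36 on the log2 scale (adjusted p = 0.0211), which stayed under the fold limit. After 1 Gy E2F5 had 16.9, 15.7 and 16.7 CPM at 24 h and 17.2 and 16.8 CPM at 6 h, with 14.7 CPM in the left-out library. These libraries all lay below the control libraries, but the log2 fold changes of -0.23 at 24 h and -0.18 at 6 h had adjusted p of 0.179 and 0.998.

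Between the doses, E2F5 was lower after 6 Gy at 6 h. Against 1 Gy, 6 Gy gave a log2 fold change of -0.80 ± 0.12 (SE, edgeR adjusted p = 0.000397), the one call of a member between the doses, where 0.582% of all tested genes were called and 0.566% were called lower. By the adjusted p alone the shares were 1 of 9 members and 1.05% of all genes. Over all 15 libraries it was -0.73. At 24 h the difference between the doses was -0.39 (adjusted p = 0.0434, and 0.0621 over all 15 libraries), and 0 of 9 members were called, against 0.44% of all genes. Before adjustment 4 members had p under 0.05 at 24 h, and 2 passed the adjusted p alone, beside 3.66% of all genes. The interaction of dose and time for E2F5 was 0.41 with an adjusted p of 0.345, the lowest of the 9 members, so a different time course after the 2 doses was not shown. edgeR called 0 of 9 members for this interaction and 1 had p under 0.05 before adjustment, while 0.291% of all genes were called, and 0.385% passed the adjusted p alone.

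E2F5 shares 466 bases at its end with C8orf59, a gene on the opposite strand, and none of the sources used says whether the reads kept their strand. C8orf59 had 18.8 to 25.4 CPM and a log2 fold change of 0.10 at 6 h after 6 Gy (edgeR adjusted p = 0.762) and of 0.04 at 24 h (adjusted p = 0.853), so the neighbour was not called in either comparison. In the 6 h libraries of 6 Gy the glioblastoma and glial markers summed to 3643 to 3899 CPM, against 3970 to 4023 CPM in the control, and the neuron markers to 36.6 to 38.4 CPM, against 37.3 to 39.9 CPM. The epithelial markers summed to 151 to 159 CPM there, against 135 to 143 CPM in the control, with no overlap. The part of these markers in the E2F5 difference was not tested.

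The other repressors that bind DNA as classical dimers were E2F4 and E2F6. E2F4, the most abundant repressor in resting cells, lies at chr16:67226068-67232821 (hg19, plus strand). It had 113, 105 and 113 CPM at 24 h after 6 Gy, against 125 and 122 CPM in the control, and 129 CPM in the left-out control. The 3 irradiated libraries were all below the control libraries, but the log2 fold change of -0.16 had an adjusted p of 0.0903. In the remaining groups E2F4 changed by -0.06 to 0.02 (log2) against the control, and no comparison passed the adjusted p.

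E2F6, which represses through Polycomb-type complexes that contain MGA and L3MBTL2, lies at chr2:11584501-11606303 (hg19, minus strand). It had 28.7, 31.4 and 28.3 CPM at 24 h after 6 Gy and 28.9, 30.8 and 30.3 CPM at 24 h after 1 Gy, against 39.6 and 35.1 CPM in the control. The left-out control had 34.9 CPM, so neither 24 h group overlapped the control. The log2 fold changes were -0.34 after 6 Gy (edgeR adjusted p = 0.0101) and -0.32 after 1 Gy (adjusted p = 0.0263). Both stayed under the fold limit, and at 24 h the 2 doses differed by -0.02 (adjusted p = 0.914). At 6 h after 6 Gy E2F6 had 33.5, 36.3 and 34.1 CPM, which overlapped the control, with a log2 fold change of -0.11 (adjusted p = 0.612).

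E2F7 and E2F8 are atypical members that bind DNA without a DP partner, repress E2F target genes late in S phase and are themselves E2F targets. E2F8, at chr11:19245610-19263202 (hg19, minus strand), had 33.2, 31.2 and 30.2 CPM at 24 h after 6 Gy, against 40.9, 38.0 and 44.2 CPM at 6 h after 6 Gy. The libraries of the 2 times did not overlap, and the difference of -0.38 on the log2 scale had an edgeR adjusted p of 0.00211 without passing the fold limit. Against the control, with 34.2 and 35.1 CPM, the 6 h level differed by 0.24 (adjusted p = 0.233) and the 24 h level by -0.14 (adjusted p = 0.347). After 1 Gy the libraries of the 2 times also did not overlap, and the difference was -0.29 (adjusted p = 0.0521).

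E2F7, at chr12:77415026-77459360 (hg19, minus strand), had 91.3, 95.9 and 90.6 CPM at 24 h after 6 Gy, against 105, 99.5 and 105 CPM at 6 h after 6 Gy. The 2 times again did not overlap, but the difference of -0.16 had an adjusted p of 0.113. Against the control, with 98.6 and 102 CPM in the fit and 81.2 CPM in the left-out library, its log2 fold changes ran from -0.20 to 0.04. No comparison of E2F7 passed the adjusted p. Between 24 h and 6 h after 6 Gy, 0 of 9 members were called where 10.6% of all genes were. Before adjustment, 7 members had p under 0.05, again without a share of all genes at that limit. By the adjusted p alone 4 members passed (E2F2 and E2F5 higher at 24 h, E2F6 and E2F8 lower), beside 34.4% of all genes. After 1 Gy, 0 of 9 members were called between the times against 5.48% of all genes, 3 had p under 0.05 before adjustment, and E2F2 alone passed the adjusted p, beside 15.9% of all genes.

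RB1 encodes the retinoblastoma protein, which restrains the activators, and lies at chr13:48877883-49056026 (hg19, plus strand). It had 155, 173 and 162 CPM at 24 h after 6 Gy and 154, 147 and 155 CPM at 6 h after 6 Gy, against 166 and 164 CPM in the control. The left-out control had 139 CPM, and with it both 6 Gy groups overlapped the control. RB1 passed the adjusted p in no comparison, and its log2 fold changes against the control ran from -0.13 to -0.02. Its 3 libraries of 1 Gy at 6 h spread most, with 170 and 132 CPM in the fit and 112 CPM in the left-out one. LPAR6, a receptor gene on the opposite strand inside the span of RB1, was called higher at 24 h after 6 Gy (1.02, adjusted p = 0.0139) and after 1 Gy (1.14, adjusted p = 0.0109), at 0.833 to 4.11 CPM over all libraries. RB1 itself was called at neither dose.

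Across the 13 fitted libraries, the log2 CPM of E2F1 and E2F5 ran opposite to each other (Pearson r = -0.927), as did E2F2 and E2F4 (r = -0.805). E2F7 and E2F8 ran together (r = 0.761), and so did E2F3 and RB1 (r = 0.605). These correlations describe 13 libraries that share the 5 groups, and are given without a test. Among 10481 genes with a mean of at least 5 CPM, the pattern most like that of E2F5 belonged to TPX2 (r = 0.976), KNSTRN (r = 0.972) and AURKA (r = 0.969), which encode the mitotic kinase AURKA, its activator TPX2 and a spindle and kinetochore protein. AURKA had 148, 155 and 160 CPM at 6 h after 6 Gy, against 361 and 381 CPM in the control, a log2 fold change of -1.27 (edgeR adjusted p = 1.66e-11). TPX2 changed by -0.75 (adjusted p = 1.77e-08) and KNSTRN by -0.86 (adjusted p = 3.83e-08) in the same comparison. For E2F2 the most alike were MEIS3 (r = 0.948), a homeobox gene, OLFML2A (r = 0.938) and FAM212B (r = 0.935). All 3 were called higher at 24 h after 6 Gy, by 1.02, 0.53 and 0.56 on the log2 scale (adjusted p of 5.47e-06, 0.000158 and 0.00142). The genes most like E2F5 and E2F2 were picked by correlation over these same libraries. That they change in the same direction as the member thus follows in part from the choice and is no separate result.

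**Figure D3:**
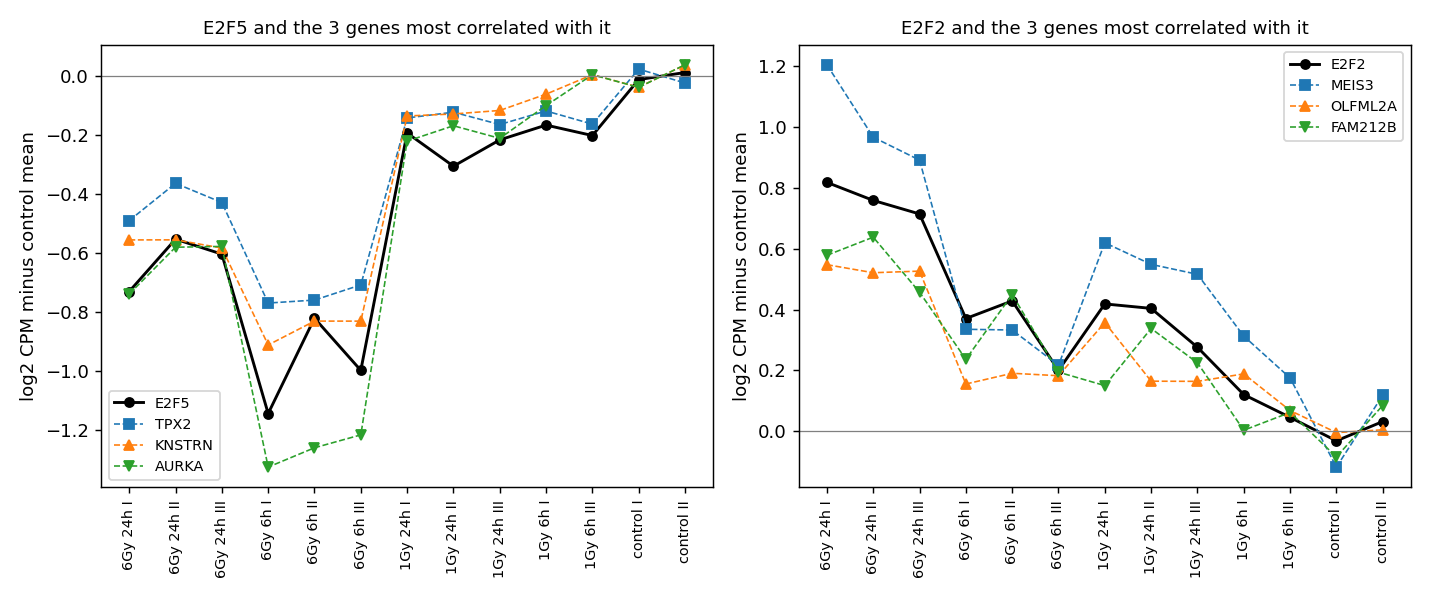
Log2 CPM minus the control mean (vertical axis) in each of the 13 fitted libraries for E2F5 and E2F2 and the 3 genes most correlated with each. Lines only join the points of one gene, and the libraries have no order within a group. All 4 genes of the E2F5 panel are lowest at 6 Gy and 6 h, and all 4 of the E2F2 panel are highest at 6 Gy and 24 h.

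The DNA-binding and regulatory partners of the family were described through a list. Of 12 listed genes for DP proteins, RBL2, the MuvB core, MYB proteins and FOXM1, 11 were tested. In each of the 9 comparisons edgeR called 0 of them, where 0% to 10.6% of all genes were called. By adjusted p alone, 1 was higher and 1 lower at 6 h after 6 Gy (0.841% and 2.04% of all genes), and 0 higher and 2 lower at 24 h after 6 Gy (23.6% of all genes in either direction). For 24 h against 6 h, 1 was higher and 5 lower after 6 Gy (34.4% of all genes), and 0 higher and 2 lower after 1 Gy (15.9% of all genes). Between the doses at 24 h, 0 were higher and 1 lower (3.66% of all genes). RBL2, the pocket protein that pairs with E2F4 and E2F5, had 53.8 ± 2.25 CPM at 6 h after 6 Gy and 70.6 ± 6.97 CPM in the control, a log2 fold change of -0.39 (adjusted p = 0.0145). At 24 h after 6 Gy it had 72.2 ± 3.44 CPM, 0.03 from the control (adjusted p = 0.838). MYBL2, an E2F target that joins MuvB to activate mitotic genes, had 366 ± 9.49 CPM at 6 h after 6 Gy and 290 ± 4.51 CPM in the control (0.34, adjusted p = 0.00428). LIN9, a MuvB subunit, differed by -0.35 at 24 h after 6 Gy (adjusted p = 0.00795). The main DP gene TFDP1 differed by 0.12 at 6 h (adjusted p = 0.304) and -0.10 at 24 h (adjusted p = 0.213). FOXM1, which drives mitotic genes, differed by -0.08 at 6 h (adjusted p = 0.665) and 0.08 at 24 h (adjusted p = 0.455).

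Among the cyclins and kinases that act on pocket proteins, listed together with the phosphatase gene CDC25A, 10 of 11 listed genes were tested. After 6 Gy, 1 was called higher and 1 lower at 24 h (5.58% and 2.19% of all genes). CCNE1, the E-type cyclin and an E2F target that activates CDK2, rose to 34.0 ± 1.76 CPM (SD, n = 3) against 22.5 ± 2.23 CPM in the control (n = 2), a log2 fold change of 0.59 (edgeR adjusted p = 0.000215). CCND1, the D-type cyclin that activates CDK4 and CDK6, fell to 303 ± 6.17 CPM against 452 ± 8.47 CPM (-0.58, adjusted p = 4.10e-06). Between the doses at 24 h CCNE1 was called too, with 6 Gy above 1 Gy by 0.54 (adjusted p = 0.00188, 0.267% of all genes called higher). For 6 h after 6 Gy, 0 were called higher and 2 lower (0.252% and 0.818% of all genes), CCNA2 (-0.54, adjusted p = 7.25e-06) and the low-level CCNA1 (-1.53, adjusted p = 3.27e-05, 2.50 ± 0.37 CPM against 7.26 ± 0.58 CPM). Over all 15 libraries 1 further gene was called higher there. After 1 Gy 0 of the 10 were called against the control, beside 4.42% of all genes at 24 h and 0% at 6 h. By adjusted p alone 1 was lower and 0 higher at 24 h (12.1% of all genes in either direction). It was CCND1, with a log2 fold change of -0.42 (edgeR adjusted p = 0.000314).

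Of 7 CDK inhibitors, 4 were tested. CDKN2A had 1 count in all 15 libraries, and CDKN2B and CDKN2C had 0. U251 is known for loss of the CDKN2A locus. CDKN2D, an inhibitor of CDK4 and CDK6, was the 1 of these called lower at 24 h after 6 Gy, beside 2.19% of all genes (14.5 ± 1.02 CPM against 20.5 ± 1.00 CPM, -0.50, adjusted p = 0.00592). CDKN1A, the p21 gene and the classical p53 target, had 97.0 ± 3.09 CPM at 24 h after 6 Gy and 99.6 ± 6.01 CPM at 6 h after 6 Gy, against 83.3 ± 0.51 CPM in the control. These log2 fold changes of 0.22 (adjusted p = 0.0326) and 0.26 (adjusted p = 0.0618) stayed under the fold limit. Of 13 cofactors and regulators of E2F, 1 was called at 24 h after either dose, beside 7.77% of all genes after 6 Gy and 4.42% after 1 Gy. It was MGA, a partner of E2F6, lower by 0.52 after 6 Gy and by 0.51 after 1 Gy on the log2 scale (adjusted p of 0.00185 and 0.00392), and over all 15 libraries 0 of the 13 were called.

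The 50 G1/S genes known as E2F targets, which serve replication and nucleotide supply, were set beside 30 G2/M genes bound by the DREAM and MYB-MuvB complexes. All of both lists were tested. The 6 h libraries of 6 Gy showed that 4 G1/S genes rose and 0 fell, beside 0.252% of all genes called higher, with a list median of 0.28 (log2) and 49 of 50 changes above 0. By adjusted p alone 25 were higher and 0 lower, beside 0.841% and 2.04% of all genes. The 4 called were CDT1 (0.58), which licenses origins, EXO1 (0.52), a DNA repair exonuclease, CLSPN (0.51), a checkpoint adaptor, and ORC1 (0.51), of the origin recognition complex. CDT1 had 176 ± 8.39 CPM at 6 h after 6 Gy and 118 ± 0.50 CPM in the control. All 4 lay close to the fold limit, and over all 15 libraries 2 were called. The control was harvested 18 h apart from this group, while 1 Gy at 6 h has the same harvest time. Against 1 Gy at 6 h, 0 of the 50 were called, beside 0.582% of all genes. The list median there was 0.197 with 48 changes above 0. By adjusted p alone 6 were higher and 0 lower, beside 1.05% of all genes.

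The 24 h libraries of 6 Gy gave 0 calls among the 50 with a median of 0.06, while 12 were higher and 7 lower by adjusted p alone. Over all 15 libraries 1 of the 50 was called lower in this comparison with the control. Of all genes, 5.58% were called higher and 2.19% lower there, and 23.6% passed the adjusted p alone. Between the times after 6 Gy 5 fell and 0 rose, with a median of -0.27, beside 3.06% of all genes called lower. Those with the lowest adjusted p were RRM2 (-0.56), the ribonucleotide reductase subunit, CDC45 (-0.78) and GINS1 (-0.51) of the replicative helicase, and FANCD2 (-0.52). RRM2 had 704 ± 22.5 CPM at 24 h and 1037 ± 14.3 CPM at 6 h after 6 Gy. After 1 Gy 0 of the 50 were called against the control, with medians of 0.03 at 24 h and 0.10 at 6 h. Of all genes, 4.42% were called at 24 h and 0% at 6 h. By adjusted p alone 4 were higher and 2 lower at 24 h (12.1% of all genes in either direction). Over all 15 libraries 1 of the 50 was called lower at 24 h.

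In the G2/M list 22 of 30 fell and 0 rose at 6 h after 6 Gy, beside 0.818% of all genes called lower, with a median of -0.75. The calls with the lowest adjusted p were KIF20A (-1.60), a kinesin of cytokinesis, PLK1 (-1.24) and AURKA (-1.27), mitotic kinases, and CCNB1 (-1.39), the mitotic cyclin. KIF20A had 82.5 ± 2.09 CPM at 6 h after 6 Gy and 250 ± 9.50 CPM in the control. By 24 h after 6 Gy 12 of 30 were called lower and 0 higher (median -0.48), beside 2.19% of all genes. By adjusted p alone 26 were lower and 1 higher there, beside 23.6% of all genes in either direction. Against 1 Gy, 6 Gy gave 21 calls lower at 6 h (median -0.61) and 3 at 24 h (median -0.34), beside 0.566% and 0.173% of all genes. By adjusted p alone 28 of 30 were lower at 6 h and 23 at 24 h, and 0 were higher at either time. The shares of all genes in either direction were 1.05% and 3.66%. Most of the genes not called at 24 h thus passed the adjusted p and stayed under the fold limit. Between the times after 6 Gy 9 rose and 0 fell, beside 7.57% of all genes called higher. The interaction of dose and time was called for 8, all above 0, where 0.267% of all genes were called higher. After 1 Gy 0 of 30 were called against the control, with medians of -0.17 at 24 h and -0.11 at 6 h. Of all genes, 4.42% were called at 24 h and 0% at 6 h. By adjusted p alone 6 of 30 were lower and 0 higher at 24 h (12.1% of all genes in either direction). E2F5, for comparison, changed by -0.98 at 6 h and by -0.63 at 24 h after 6 Gy, and is in neither list.

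**Figure D4:**
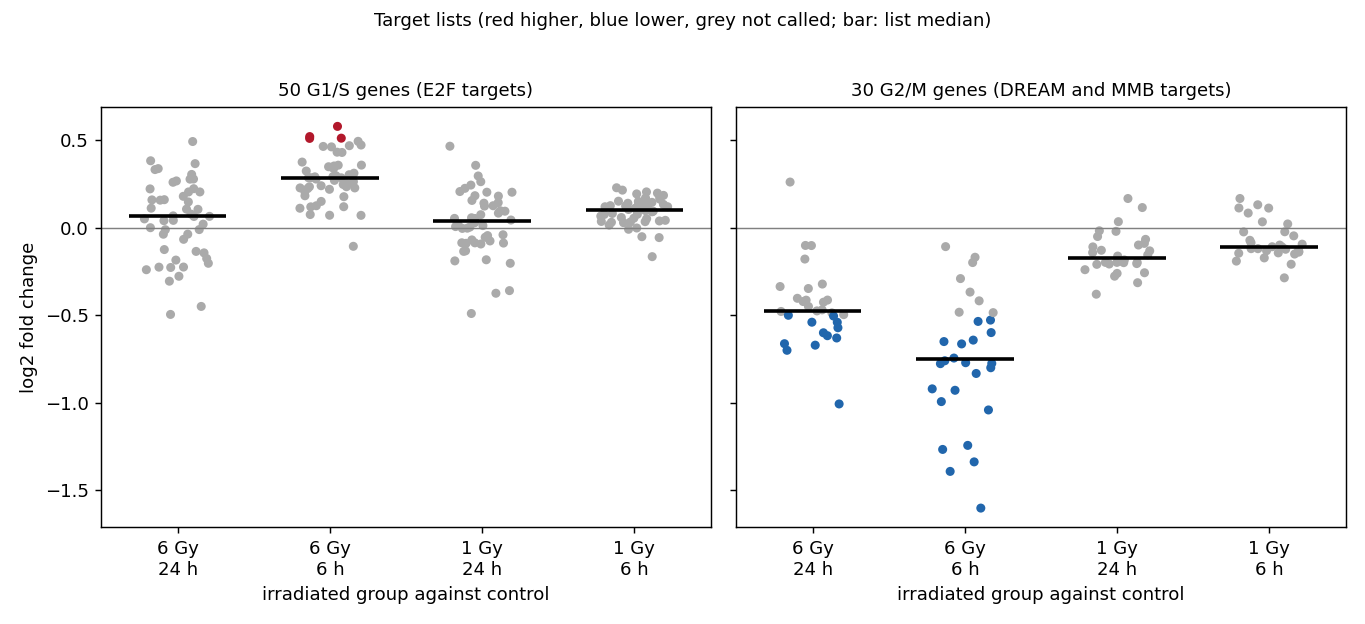
Log2 fold change against the control (vertical axis) of each gene of the G1/S list (50 genes) and the G2/M list (30 genes) in the 4 irradiated groups. Each point is a gene, red is called higher, blue called lower, grey not called, and the bar is the list median. At 6 h after 6 Gy the medians are 0.28 for G1/S and -0.75 for G2/M.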

How the data were processed

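Poly(A) RNA of U251 cells was sequenced in 15 libraries, and the authors deposited raw read counts per gene, made with TopHat on hg19 and HTSeq (versions and the use of strand: not given in the sources used here). Besides this, a second deposited table holds the authors' expression values of 13 libraries with their fold changes, p-values and calls, and was not used.

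Genes were kept by filterByExpr of edgeR 4.0.16 (R 4.3.3), set to a minimum count of 10, with a minimum total of 15, large n of 10 and minimum proportion of 0.7. After TMM scaling, one quasi-likelihood fit over 5 groups (13 libraries, 8 residual degrees of freedom) served all 9 comparisons, namely irradiated groups with the control, doses at each time, times after each dose, and the interaction. Benjamini-Hochberg adjustment ran over all 12719 tested genes. The SE of a log2 fold change was derived from the test, as its absolute value divided by the square root of the quasi-likelihood F statistic. The steps were run on simulated data for the comparisons with the control and between the doses, but not for the times or the interaction. CPM of the left-out libraries came from TMM over all 15.

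The members and gene lists were chosen with earlier results of these data known. All members are named, with the 3 genes most correlated with each member called against the control (log2 CPM, prior count 2). Called genes of the lists were drawn from up to 4 of the lowest adjusted p per list and comparison. Not every one of these is printed. RBL2, MYBL2, LIN9, TFDP1, FOXM1, CDKN1A, CDKN2A to CDKN2C, C8orf59 and LPAR6 were named after their values were seen. Alternatives were RLE size factors, library totals, DESeq2 1.42.0, no filter, the likelihood ratio test of edgeR, a filter at 1 CPM in 2 libraries, all 15 libraries, a replicate block, only the groups compared, no fold threshold, and each library left out in turn. Gene positions come from the columns of the deposited counts (hg19), transcript lengths from GENCODE on hg19, and promoter sequences from RefSeq on GRCh38.p14. Figures were drawn with matplotlib 3.10.9 in Python 3.11.15.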

Additional observations from a re-analysis of the deposited data

How the results depend on the processing

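The calls of E2F5 and E2F2 held under every alternative run. Over 81 results (9 members in 9 comparisons) and 1863 values under the alternatives, 1849 stayed on their side of the thresholds in the same direction or uncalled, 0 calls were lost, 0 turned and 14 values became calls. Of the uncalled values 44 took another sign. Without the fold threshold, 2 members were called for 1 Gy at 24 h, 3 for 6 Gy at 6 h, 4 for 6 Gy at 24 h, 2 between the doses at 24 h, 1 for 24 h against 6 h after 1 Gy and 4 for 24 h against 6 h after 6 Gy, against 0, 1, 2, 0, 0 and 0 with it. Leaving out each library in turn gave 1 to 2 calls for 6 Gy at 6 h, the second being E2F1 without control I (0.52, edgeR adjusted p = 0.0101), 2 to 2 calls for 6 Gy at 24 h, 1 to 1 between the doses at 6 h and 0 to 0 elsewhere. Where this left 1 control or 1 library of 1 Gy at 6 h, that library was assumed to vary like the other groups.

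The numbers I to III share no stated origin. The deviations of 22 same-numbered pairs had correlations of 0.0287 to 0.256, 11 of them over 0.1. Their median was 0.0943, beside -0.063 for pairs of different numbers, and 12 of 13 libraries correlated best with their own number. Over all 15 libraries the same-numbered pairs ran from -0.151 to 0.374, and 12 libraries correlated best with their own number. With the number as a replicate block, the counts of called members were 1 for 6 Gy at 6 h, 2 at 24 h, 1 between the doses at 6 h and 0 elsewhere, as without it. Over all genes the block gave 76 higher and 33 lower for 6 Gy against 1 Gy at 24 h (34 and 22 without it), and 75 and 13 for the interaction (34 and 3). At about 9604756 counts a library, a log2 change of E2F5 had an SE of about 0.12, which limits how small a change of a low member can be told from 0.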
